A study of Mus musculus with 66 samples.

Results

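The spinal cord transcriptome of Rorb h2/h2 mice, labelled H2 in the sample records, was compared with that of C57BL/6J mice across all genes. The members were the 7 spinal cord libraries that carried these genotype labels, 4 of H2 and 3 of C57BL/6J, out of 66 libraries in the series. The h2 allele is a spontaneous recessive mutation, and mice homozygous for it walk with a high-stepping gait. It arose on the albino strain B6(Cg)-Tyr c-2J/J, and the mutant strain carries the Rorb allele hstp-4J beside the c-2J allele of Tyr, so that the H2 mice differed from C57BL/6J at the pigment gene Tyr as well as at Rorb. The study did not identify the causal h2 change, although it noted raised read depth upstream of Rorb. H2 samples 1 and 2 came from females aged 7.9 weeks, sample 3 from a female and sample 4 from a male aged 9.4 weeks. All C57BL/6J mice were 8.0 weeks old, and samples 1 and 2 were from females and sample 3 from a male. No label ties an H2 mouse to a C57BL/6J littermate or a shared day, so genotype, strain and colony cannot be told apart, and the p-values measure the spread between these mice. The same 3 C57BL/6J mice served as controls for other mutants of the series.

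Rorb encodes RORbeta, an orphan nuclear receptor that binds DNA as a transcription factor and is known in the spinal cord from inhibitory interneurons of the dorsal horn that gate sensory feedback to motor circuits. The gene has alternative first exons that give the Rorb1 and Rorb2 transcripts, which the gene-level tables do not separate. Chaperones and folding enzymes of the endoplasmic reticulum (ER), which were of interest in the study, fold secreted and membrane proteins, and their genes are induced together by the unfolded protein response. Glucocorticoids act through another nuclear receptor and induce a set of target genes across neurons and glia.

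Between 42851672 and 49855749 expected read counts were assigned to genes per spinal cord library of H2 and C57BL/6J. Levels are given as CPM, counts scaled to a common library total, which compares libraries for a gene but not genes of different length. Of 45706 gene identifiers, 17464 passed the filter on low counts. Xist, the RNA of the inactive X chromosome, stood at 939.1 to 1002 CPM in the female and at 0.359 to 0.447 CPM in the male libraries of these groups, as labelled. Of 38 Hox genes, which mark spinal cord position, 37 passed the filter. The summed level of all 38 was 676.6 to 713.3 CPM in C57BL/6J and 648.4 to 694.6 CPM in H2. In bulk tissue, fewer cells of a type and less RNA per cell cannot be told apart.

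Rorb itself was measured first, to ask how the h2 allele affects its transcript. Rorb (ENSMUSG00000036192, GRCm38 chr19:18930609-19111196) stood at 41.0, 39.5 and 36.7 CPM in the 3 C57BL/6J spinal cords and at 23.2, 23.3, 25.0 and 23.2 CPM in the 4 H2 spinal cords. All H2 libraries lay below all C57BL/6J libraries, and the transcript was reduced but readily detected. Rorb fell by 39.5%, a log2 fold change of -0.72 (SE 0.052), with an adjusted p of 9.56e-07 in edgeR's quasi-likelihood test with Benjamini-Hochberg adjustment. An exact two-sided permutation test over the 35 splits of the 7 mice gave p = 0.0286, the smallest that these group sizes allow. On the scale of log2(TPM + 1), where TPM are the authors' values normalised for transcript length and depth, the difference was -0.60.

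The genes tested within 1 Mb of Rorb did not share its difference. Within 1 Mb, 5 other genes were tested, and all of them lie on the side of the 3' end of Rorb. Trpm6, a magnesium channel gene and the nearest of them, had a log2 fold change of 0.13 (adjusted p = 0.847 by edgeR). Carnmt1 had a log2 fold change of -0.17 (edgeR adjusted p = 0.359). Ostf1, Nmrk1 and D030056L22Rik had log2 fold changes of -0.04, 0.03 and -0.01, and the H2 and C57BL/6J values overlapped for each of the 5 neighbours. On the upstream side of Rorb, the 2 annotated genes within this distance, the small RNA genes Gm25437 and Gm22684, had no counts in any of the 7 libraries. Further upstream, outside this window, Aldh1a1 (chr19:20492583-20643463) was lower in H2, as given below. The related receptor gene Rora had a log2 fold change of -0.06 (edgeR adjusted p = 0.48).

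**Figure D1:**
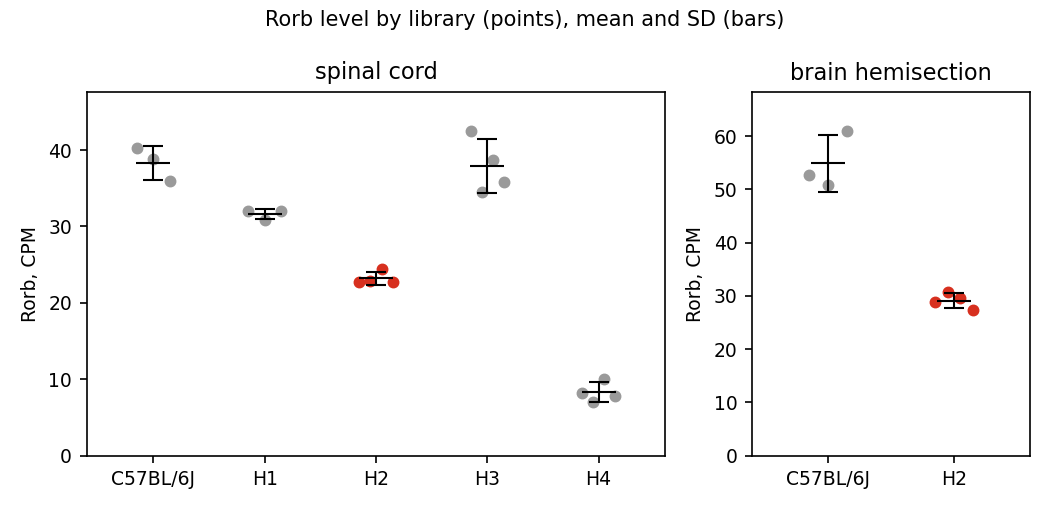
Rorb level in CPM (vertical axis) for each library (points) of 5 spinal cord groups (left) and 2 brain hemisection groups (right), with the mean and SD as bars. On the common scale of each panel the H2 spinal cords (red) sit between 22.7 and 24.5 CPM, below every C57BL/6J, H1 and H3 library and above every H4 library.

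Across the transcriptome, 365 of 17464 genes, or 2.09%, differed between H2 and C57BL/6J spinal cord at an adjusted p under 0.05 in edgeR, and 153 of these were higher (0.876%) and 212 lower (1.21%) in H2. The differences were small. The median size was 0.25 on the log2 scale over the called genes, and 15 of them differed by more than 2-fold, of which 6 had a mean level of at least 1 CPM. Of the called genes, 350 had no overlap between the groups (95.9%), which was true of 13.9% of all tested genes (6.94% with H2 higher and 6.99% with H2 lower). The median log2 fold change over all tested genes was 0.002. The count depended on single mice, since it was 132 without C57BL/6J sample 1, 225, 188 and 151 without H2 samples 1, 2 and 3, and 501 without H2 sample 4. Of the 365 genes, 99 were called in all 7 of these fits, and 48 in these and every other setting tried. An unadjusted p under 0.05 was found in edgeR for 2723 of the 17464 tested genes. DESeq2 called 554 of the 25602 genes it tested (2.16%). Counts of either kind for the gene lists below stand against these shares.

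**Figure D2:**
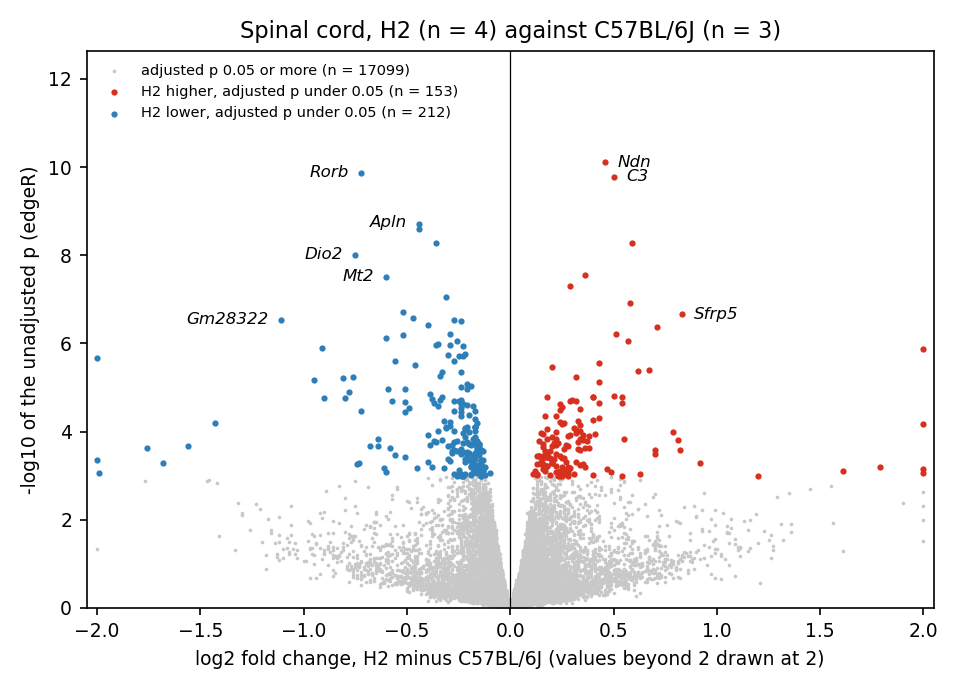
Log2 fold change, H2 minus C57BL/6J (horizontal axis, values beyond 2 drawn at 2), against -log10 of the unadjusted edgeR p (vertical axis) for 17464 genes of the spinal cord. The 153 genes called higher in H2 are red and the 212 called lower are blue, and Ndn, C3 and Rorb have the smallest p-values.

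Ndn, C3 and Adamtsl4 led the genes that were higher in H2. Ndn encodes necdin, a MAGE family protein expressed from the paternal allele in postmitotic neurons, and lies in the imprinted Prader-Willi cluster on chromosome 7. It measured 126.1, 118.1 and 126.3 CPM in C57BL/6J and 171.6, 166.1, 168.8 and 174.4 CPM in H2. The ranges were far apart, and Ndn rose by 0.46 on the log2 scale (SE 0.032, edgeR adjusted p = 9.56e-07). The other 8 tested genes of the cluster, Magel2, Mkrn3, Snrpn, Snurf, Peg12, Ube3a, Snhg14 and Nipa1, did not pass the test with edgeR, 2 of them had an unadjusted p under 0.05, DESeq2 called 1 of the 8, and all 8 had negative log2 fold changes.

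C3, the central component of the complement cascade, measured 87.0, 87.0 and 80.2 CPM in C57BL/6J and 117.4, 120.2, 123.5 and 117.5 CPM in H2. Every H2 library exceeded every C57BL/6J library, and C3 rose by 0.50 on the log2 scale (SE 0.036, edgeR adjusted p = 9.56e-07). Of 16 tested complement genes, C3 alone was called (6.25% against 2.09% of all tested genes). The complement genes C1qa and C1qb had log2 fold changes of 0.19 and 0.16 with edgeR adjusted p of 0.116 and 0.189. Emp1 and Vim, like C3 on the list of reactive astrocyte genes, rose by 0.55 and 0.18 on the log2 scale, and each call was lost in at least 4 of the 7 fits that left out a mouse, with adjusted p up to 0.0776 for Emp1 and 0.121 for Vim without C57BL/6J sample 1. Gfap, the astrocyte intermediate filament, had a log2 fold change of 0.05 (edgeR adjusted p = 0.606). In all, 3 of 21 tested reactive astrocyte genes were called (14.3% against 2.09% of all tested genes).

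Adamtsl4, Adamts2 and Col6a3, genes of the extracellular matrix, were among the leading increases. Adamtsl4, which encodes a secreted glycoprotein of microfibrils, measured 24.1, 27.5 and 24.5 CPM in C57BL/6J and 39.5, 37.2, 38.5 and 37.3 CPM in H2 (log2 fold change 0.59, SE 0.054, edgeR adjusted p = 1.31e-05). Adamts2, the procollagen N-propeptidase, measured 15.5, 17.2 and 18.3 CPM in C57BL/6J and 23.4, 26.7, 25.2 and 26.2 CPM in H2 (log2 fold change 0.58, edgeR adjusted p = 0.000161). Both were higher in 4 of 4 H2 mice than in any control. Col6a3, a chain of collagen VI, and Col1a2, a chain of collagen I, rose by 0.62 and 0.28 on the log2 scale. The Col6a3 call was kept in all 7 fits that left out a mouse, and the Col1a2 call in 1 of them, with adjusted p up to 0.218 without C57BL/6J sample 1. Igfbp2, a secreted binding protein of insulin-like growth factors, fell by 0.59, a call that was lost with H2 samples 3 and 4 as the only mutants (edgeR adjusted p = 0.0582). These 3 were the called members of 26 tested meningeal fibroblast and collagen genes (11.5% against 2.09% of all tested genes). The summed level of that list was 621.6 to 678.4 CPM in C57BL/6J and 623.7 to 684.9 CPM in H2.

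Signalling genes were among the remaining leading increases. Sfrp5, a secreted inhibitor of Wnt ligands, measured 6.22, 6.00 and 5.52 CPM in C57BL/6J and 8.98, 11.6, 11.4 and 9.99 CPM in H2, and it rose by 0.83 on the log2 scale (SE 0.099, edgeR adjusted p = 0.000256). Gli1, a transcription factor and target of Hedgehog signalling, rose by 0.67 (SE 0.101, edgeR adjusted p = 0.00161), a call that was lost when C57BL/6J, H1, H2, H3 and H4 spinal cords were fitted together, called the fit of 5 spinal cord groups (0.0672). Rasal1, a Ras GTPase-activating protein, rose by 0.71 (edgeR adjusted p = 0.000348). Of the exon bases of Rasal1, 20.5% lie under exons of Dtx1 on the opposite strand, and the use of strand in counting is not given in the sources used here. Itih3, a hyaluronan-binding heavy chain, 2310022B05Rik, Mid1ip1, a regulator of acetyl-CoA carboxylase, and Ccdc88c rose by 0.36, 0.29, 0.20 and 0.32 on the log2 scale. The Ccdc88c call was lost with H2 samples 3 and 4 as the only mutants (edgeR adjusted p = 0.0713).

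After Rorb, Apln had the smallest p-value among the genes lower in H2, and the gene of its receptor rose. Apln, which encodes apelin, measured 73.7, 73.1 and 76.9 CPM in C57BL/6J and 52.5, 55.1, 55.4 and 56.3 CPM in H2. The groups did not overlap, and Apln fell by 0.44 on the log2 scale (SE 0.038, edgeR adjusted p = 8.74e-06). Aplnr, the apelin receptor, measured 24.1, 26.8 and 24.1 CPM in C57BL/6J and 35.8, 32.1, 35.8 and 31.0 CPM in H2, and it rose by 0.43 (SE 0.062, edgeR adjusted p = 0.00119). Both genes are on the list of endothelial and barrier genes. On that list Mfsd2a, the lipid transporter of the blood-brain barrier, Slc2a1, the glucose transporter GLUT1, Ly6c1 and Adgrl4 fell by 0.51, 0.22, 0.28 and 0.25 on the log2 scale. The calls were lost without C57BL/6J sample 1 for Mfsd2a (edgeR adjusted p = 0.0718), without H2 sample 3 for Slc2a1 (0.053), in 4 of 7 such fits for Ly6c1 and in 6 of 7 for Adgrl4 (up to 0.187 and 0.144 without C57BL/6J sample 1). Of 29 tested genes, 1 rose and 5 fell (20.7% called against 2.09% of all tested genes). The general endothelial genes Cldn5, Pecam1 and Cdh5 had log2 fold changes of -0.02, 0.02 and 0.06, with overlapping groups, and the summed level of the list was 1026 to 1039 CPM in C57BL/6J and 942.2 to 1025 CPM in H2.

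Slc38a2, the amino acid transporter SNAT2, measured 320.7, 298.8 and 319.7 CPM in C57BL/6J and 233.4, 241.8, 229.9 and 219.2 CPM in H2. It fell by 0.44 on the log2 scale (SE 0.038, edgeR adjusted p = 8.97e-06). Aldh1a1, an enzyme of retinoic acid synthesis, fell by 0.36 (SE 0.033, edgeR adjusted p = 1.31e-05). Dio2, the deiodinase that activates thyroid hormone, measured 29.3, 24.7 and 27.7 CPM in C57BL/6J and 15.6, 18.2, 16.1 and 14.9 CPM in H2. Of the 8 lower genes with the smallest p-values it had the largest relative decrease, falling by 0.75 on the log2 scale (SE 0.072, edgeR adjusted p = 2.12e-05). On the list of thyroid hormone activation and response genes, 3 of 15 tested members rose, Itih3 and Dbp among them, and 3 fell, namely Dio2, Aldh1a1 and Klf9, against 2.09% of all tested genes called.

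Further genes with the smallest p-values among the decreases encode proteins of several kinds. Ncan, the brain proteoglycan neurocan, fell by 0.27 on the log2 scale, Gpd1, a glycerol phosphate dehydrogenase, by 0.24, and Ptp4a1, a phosphatase, by 0.31. Etv1, an ETS transcription factor, fell by 0.40 and Smyd1, a muscle histone methyltransferase, by 0.52. Each of these 5 was called in all 7 fits that left out a mouse. For Ptp4a1 the authors' mean TPM did not fall, at 151.3 in C57BL/6J and 154.5 in H2. The non-coding RNA Gm28322 measured 4.47, 4.44 and 3.91 CPM in C57BL/6J and 1.93, 2.36, 1.84 and 1.78 CPM in H2, and it was the only gene that differed by more than 2-fold among the 15 higher and 15 lower genes with a symbol and the smallest adjusted p (log2 fold change -1.11, SE 0.135, edgeR adjusted p = 0.000283).

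Genes of ER protein folding were lower in H2. Of 27 tested ER chaperones and folding factors, 8 fell and none rose in edgeR, 29.6% against the background of 2.09%. An unadjusted p under 0.05 was found for 15 of them, against 2723 of all 17464 tested genes. This list follows the interest of the study in these same samples and is not independent evidence of its direction. Hspa5, the master ER chaperone BiP, measured 341.3, 285.9 and 422.1 CPM in C57BL/6J and 270.3, 257.3, 233.2 and 232.5 CPM in H2. The groups did not overlap, but the control values were spread widely with sample 3 highest, and Hspa5 fell by 0.49 on the log2 scale (SE 0.087, edgeR adjusted p = 0.00563). Sdf2l1, a partner of BiP, measured 10.3, 9.56 and 14.6 CPM in C57BL/6J and 7.08, 6.92, 6.61 and 6.43 CPM in H2, and it fell by 0.76 (SE 0.117, edgeR adjusted p = 0.00198). Its C57BL/6J sample 3 was again the highest.

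The co-chaperone genes Dnajc3 and Dnajb11 fell by 0.24 and 0.29 on the log2 scale, and Manf, a secreted ER stress-inducible factor, fell by 0.39. Pdia6, a protein disulfide isomerase, fell by 0.28, and its call was lost without H2 sample 3 (edgeR adjusted p = 0.0652). The remaining called members, Calr and Pdia4, are named after their values were seen, with log2 fold changes of -0.28 and -0.32. Hspa5, Sdf2l1, Dnajc3, Dnajb11 and Manf were called in all 7 fits that left out a mouse. With H2 samples 1 and 2 as the only mutants the calls of Hspa5, Manf and Dnajb11 were lost (edgeR adjusted p = 0.085, 0.0559 and 0.082), and with samples 3 and 4 that of Dnajb11 (0.11). The number of members called lower was 2 with H2 samples 1 and 2 (7.9 weeks) as the only mutants, 5 with samples 3 and 4 (9.4 weeks) as the only mutants, 5 without H2 sample 3 and 11 without C57BL/6J sample 2. Of all tested genes, 0.841%, 0.71%, 0.872% and 1.7% were called in these fits, in this order and in either direction. The summed level of the list was 2738 to 3220 CPM in C57BL/6J and 2542 to 2712 CPM in H2. Canx, P4hb and Ppib, abundant genes of the same compartment, had log2 fold changes of -0.05, 0.06 and 0.04 with overlapping groups. Of the exon bases of Hspa5 and Manf, 44.2% and 32.6% lie under exons of Rabepk and Rbm15b, neither of which was called.

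Other ER gene lists were not called. Of 27 tested genes of the ER membrane, translocation and degradation, 0 were called by edgeR or DESeq2. An unadjusted p under 0.05 was found for 2 of them, against 2723 of all 17464 tested genes. Among 10 ER stress sensors and transducers, such as Ern1, Eif2ak3, Atf6 and Atf4, 0 were called by either tool and 2 had an unadjusted p under 0.05. Among 18 targets of ATF4 and CHOP, 0 were called by either tool and 1 had an unadjusted p under 0.05. Xbp1, a transcription factor of this response, had a log2 fold change of -0.30 (edgeR adjusted p = 0.083). Cytosolic heat-shock genes showed 3 decreases among 18 tested members (16.7% against 2.09% of all tested genes), 17 of which had negative log2 fold changes. The number called was 1 without C57BL/6J sample 3, H2 sample 2 or H2 sample 3, and 6 without C57BL/6J sample 2. Of all tested genes, 2.03%, 1.09%, 0.872% and 1.7% were called in these fits, in this order. Chordc1, a co-chaperone of HSP90, fell by 0.33 and was called in all 7 fits that left out a mouse. Ahsa1 fell by 0.21, and its call was lost in 4 of these fits (edgeR adjusted p up to 0.0917 without H2 sample 3). Hspa1b, an inducible HSP70 gene, rested on C57BL/6J sample 3, with 6.66, 5.93 and 26.2 CPM in C57BL/6J and 3.83, 5.73, 4.35 and 2.26 CPM in H2. It fell by 1.68 on the log2 scale, and without C57BL/6J sample 3 the log2 fold change was -0.65 (edgeR adjusted p = 0.163). The call was also lost without any single H2 mouse (edgeR adjusted p between 0.0515 and 0.0971).

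The ER stress response element is the letter pattern CCAAT and CCACG with any 9 bases between them, to which NF-Y and ATF6 are known to bind. It was searched on both strands of the RefSeq promoters (GRCm38.p6, 250 bases before to 50 bases after each gene start). The promoters of an autosome with 436 tested and 9 called genes were left out of the search. All promoter counts and percentages, here and for the other motifs below, are therefore without that autosome. The ER stress response element occurred in 39 of 32851 promoters (0.119%), in 8 of the 31 promoters of the ER chaperone list (25.8%) and in 4 of the 7 promoters found for its called members. The promoters of 3 of these genes are shown, each with the pattern in capitals on the plus strand, because they are called members that hold it. Called members without it, Sdf2l1, Dnajb11 and Pdia4, and uncalled members with it, Canx, Creld2, Ero1b and Hsp90b1, were also found. It starts 65 bases before the gene start of Hspa5 (chr2:34771840-34772139), 105 bases before that of Dnajc3 (chr14:118937682-118937981) and 98 bases before that of Pdia6 (chr12:17266339-17266638). A match is a description of the letters and not a site of binding.
Hspa5: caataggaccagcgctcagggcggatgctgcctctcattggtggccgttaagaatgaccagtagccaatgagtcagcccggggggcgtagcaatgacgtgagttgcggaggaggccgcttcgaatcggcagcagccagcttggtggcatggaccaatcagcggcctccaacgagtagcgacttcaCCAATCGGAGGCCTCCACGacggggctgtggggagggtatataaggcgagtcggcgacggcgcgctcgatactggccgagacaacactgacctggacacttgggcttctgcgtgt
Dnajc3: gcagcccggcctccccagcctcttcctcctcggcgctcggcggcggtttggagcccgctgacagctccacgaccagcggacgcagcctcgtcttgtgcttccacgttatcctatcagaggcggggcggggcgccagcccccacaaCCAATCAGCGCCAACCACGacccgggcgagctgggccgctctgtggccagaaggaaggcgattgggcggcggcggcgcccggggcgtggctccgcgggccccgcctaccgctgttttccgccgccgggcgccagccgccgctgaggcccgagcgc
Pdia6: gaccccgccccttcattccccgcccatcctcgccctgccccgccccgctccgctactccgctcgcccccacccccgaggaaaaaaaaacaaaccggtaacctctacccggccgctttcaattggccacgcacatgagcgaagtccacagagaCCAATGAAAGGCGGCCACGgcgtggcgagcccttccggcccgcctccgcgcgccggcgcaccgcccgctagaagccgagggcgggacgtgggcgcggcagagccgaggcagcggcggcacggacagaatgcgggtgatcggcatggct

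Glucocorticoid-induced genes were the other list with many decreases. Of 23 tested members, 7 fell and none rose (30.4% against the background of 2.09%). An unadjusted p under 0.05 was found for 14 of them, against 2723 of all 17464 tested genes. The median log2 fold change was -0.18 against 0.002 over all genes. Sgk1, a serum- and glucocorticoid-regulated kinase, measured 53.4, 64.1 and 85.1 CPM in C57BL/6J and 30.3, 48.9, 40.4 and 35.1 CPM in H2. The spread within each group was wide, yet no H2 value reached the lowest control, and Sgk1 fell by 0.80 on the log2 scale (SE 0.135, edgeR adjusted p = 0.00437). The Sgk1 call was lost with H2 samples 1 and 2 as the only mutants (edgeR adjusted p = 0.0536) and in the fit of 5 spinal cord groups (0.235). Mt2, a metallothionein that binds zinc and copper, measured 99.5, 95.4 and 89.8 CPM in C57BL/6J and 67.0, 69.9, 55.6 and 58.7 CPM in H2. It fell by 0.60 (SE 0.062, edgeR adjusted p = 5.35e-05).

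Its neighbour Mt1 fell by 0.35 on the log2 scale, a call that was lost without C57BL/6J sample 1 (edgeR adjusted p = 0.0502). The metallothionein Mt3, which is expressed in neural tissue, had a log2 fold change of -0.05 (edgeR adjusted p = 0.753). Cdkn1a, the cell cycle inhibitor p21, measured 24.9, 28.6 and 27.8 CPM in C57BL/6J and 19.7, 19.8, 18.1 and 17.98 CPM in H2, and it fell by 0.52 (SE 0.061, edgeR adjusted p = 0.000243). Klf9, a Krüppel-like factor, fell by 0.27 and was called in all 7 fits that left out a mouse. Plin4, a lipid droplet protein, fell by 0.90, and its call was lost without C57BL/6J sample 1 (edgeR adjusted p = 0.0588). Plin4 shares 39.1% of its exon bases with Hdgfl2 on the opposite strand. The summed level of the glucocorticoid-induced genes was 949.5 to 1001 CPM in C57BL/6J and 806.5 to 878.1 CPM in H2, without overlap. Per1 and Fkbp5, widely used markers of glucocorticoid exposure, had log2 fold changes of 0.10 and -0.09 with overlapping groups. The receptor gene Nr3c1 had a log2 fold change of 0.11 (edgeR adjusted p = 0.0708).

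The glucocorticoid response element was searched as GNACA and TGTNC with any 3 bases between them, a pattern that reads the same on both strands. It occurred in 156 of 32851 promoters (0.475%) and in 2 of the 15 promoters of the 7 called genes. These belong to Mt1 (chr8:94178839-94179138), where it starts 94 bases before an annotated start, and Sgk1 (chr10:21993640-21993939), where it starts 188 bases before one. Both annotated starts lie inside the gene, whose span begins at base 94178883 for Mt1 and 21882184 for Sgk1. The 2 promoters are shown with the match in capitals because these are the called genes of the list that hold the pattern. The core letters of the ROR response element, TAGGTCA, were in 2.61% of all promoters and in 1.84% of the promoters of tested genes. They were in 4 of 224 promoters of genes called lower (1.79%) and in 0 of 152 promoters of genes called higher. The letters TGCACNC or TGCGCNC of the metal response element were in 25.7% of all promoters, in 35.2% of those of tested genes and in those of both Mt1 and Mt2. The letters TCACNCCAC of the sterol response element were in 1.24% of all promoters and in neither promoter found for the called cholesterol genes.
Mt1: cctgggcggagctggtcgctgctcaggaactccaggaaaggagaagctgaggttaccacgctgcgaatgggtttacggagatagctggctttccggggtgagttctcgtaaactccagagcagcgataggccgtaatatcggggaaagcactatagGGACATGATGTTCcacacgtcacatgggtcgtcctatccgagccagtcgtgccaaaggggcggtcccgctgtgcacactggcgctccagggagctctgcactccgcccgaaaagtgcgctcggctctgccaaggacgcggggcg
Sgk1: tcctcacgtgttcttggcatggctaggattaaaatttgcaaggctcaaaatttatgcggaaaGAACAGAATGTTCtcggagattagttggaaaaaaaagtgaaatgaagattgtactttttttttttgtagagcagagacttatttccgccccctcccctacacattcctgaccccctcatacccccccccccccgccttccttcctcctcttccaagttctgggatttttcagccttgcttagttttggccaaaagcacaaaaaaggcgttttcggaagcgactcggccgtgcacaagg

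**Figure D3:**
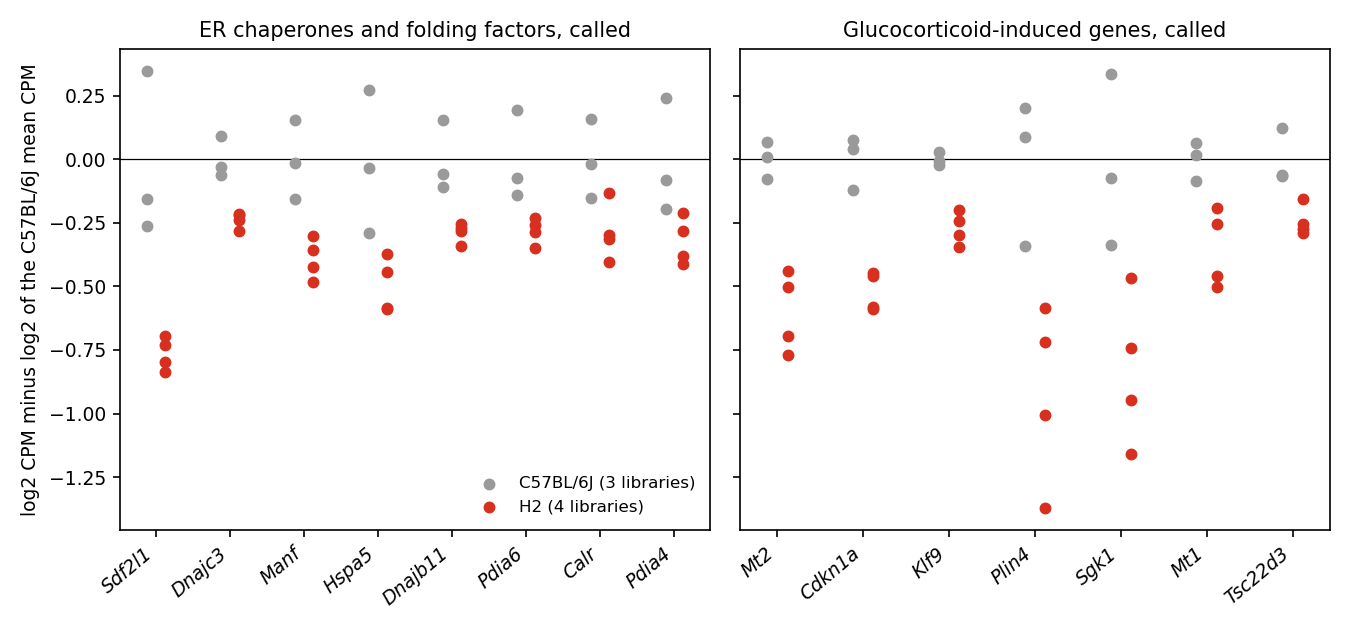
Log2 CPM of each library minus the log2 of the C57BL/6J mean CPM (vertical axis) for the 8 called ER chaperones and folding factors (left) and the 7 called glucocorticoid-induced genes (right), with 3 C57BL/6J libraries in grey and 4 H2 libraries in red. Only Calr shows an H2 library within the range of the controls, and the C57BL/6J values of Hspa5, Sdf2l1, Plin4 and Sgk1 are spread widely.

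Of 21 tested inhibitory neuron genes, 3 fell, namely Rorb, Gad1 and Gad2 (14.3% against 2.09% of all tested genes). Without H2 sample 4, 5 members were called, and 2.9% of all tested genes were called in that fit. Gad1, which encodes the GABA-synthesising enzyme GAD67, measured 196.0, 185.5 and 191.5 CPM in C57BL/6J and 167.2, 172.0, 165.7 and 165.7 CPM in H2, and it fell by 0.19 on the log2 scale (SE 0.030, edgeR adjusted p = 0.003). The Gad1 call was lost with H2 samples 1 and 2 as the only mutants (edgeR adjusted p = 0.052). Gad2, the GAD65 gene, fell by 0.12, and its call was lost in 6 of 7 fits that left out a mouse (edgeR adjusted p up to 0.127 without H2 sample 3). Slc32a1, the vesicular inhibitory amino acid transporter, and Pax2, a transcription factor of dorsal inhibitory neurons, had log2 fold changes of -0.08 and 0.04 with overlapping groups. Slc6a5, the glycine transporter of glycinergic neurons, had a log2 fold change of -0.12 (edgeR adjusted p = 0.0767). The summed level of the inhibitory neuron genes was 2829 to 2901 CPM in C57BL/6J and 2631 to 2724 CPM in H2.

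Pan-neuronal genes stood lower beside them. Their summed level was 11960 to 12200 CPM in C57BL/6J and 11510 to 11790 CPM in H2, 14 of 17 had negative log2 fold changes, and 2 were called (11.8% against 2.09% of all tested genes), Elavl4 (-0.24) and Syt1 (-0.13). The Elavl4 call was lost with H2 samples 3 and 4 as the only mutants (edgeR adjusted p = 0.0946). The Syt1 call was lost in 6 of 7 fits that left out a mouse, with an adjusted p up to 0.167 without C57BL/6J sample 1. The part of this difference in the Gad1 and Gad2 results was not tested. Among 23 tested excitatory dorsal horn neuron genes, 0 were called by edgeR and 1 by DESeq2, and 5 had an unadjusted p under 0.05. Of 18 motor neuron and cholinergic genes, 3 fell (16.7% against 2.09%). Calca, which encodes the neuropeptide CGRP of motor and sensory neurons, measured 22.8, 21.3 and 22.3 CPM in C57BL/6J and 15.2, 15.9, 16.8 and 15.96 CPM in H2 (log2 fold change -0.47, SE 0.057, edgeR adjusted p = 0.000283). Uts2, the motor neuron peptide urotensin, fell by 0.57, and 27.8% of its exon bases lie under Per3. Its call was lost with H2 samples 3 and 4 as the only mutants and in the fit of 5 spinal cord groups (edgeR adjusted p = 0.0582 and 0.0655). Spp1, osteopontin, fell by 0.17, a call that was lost without C57BL/6J sample 1 or 3 or H2 sample 3 (edgeR adjusted p up to 0.12).

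Calca also marks sensory ganglia, from which nerve roots can carry RNA into a spinal cord sample. Of 14 sensory ganglion genes, 9 were tested. The summed level of all 14 was 421.2 to 424.0 CPM in C57BL/6J and 390.4 to 403.1 CPM in H2, most of it from the pan-neuronal tubulin Tubb3. The defining nociceptor channel gene Scn10a stood at no more than 0.0799 CPM in any library, and Mrgprd was at 0 in all. The part of this list in the Calca result was not tested. Of the 19 GABA and glycine receptor subunits, the 25 glutamate receptor subunits, the 24 sodium and calcium channel genes and the 17 ventral interneuron transcription factors, 0 were called by edgeR. Of these same lists, 2, 6, 7 and 2 members had an unadjusted p under 0.05, against 2723 of all 17464 tested genes. DESeq2 called 0, 1, 3 and 0 members, against 2.16% of all genes it tested. Among 34 potassium channel genes, Kcnk1 fell by 0.29 and Kcna6 rose by 0.18 (5.88% called against 2.09% of all tested genes). The Kcna6 call was lost without C57BL/6J sample 1 or H2 sample 3 (edgeR adjusted p up to 0.0718). Of 18 immediate early genes, Arc alone was called (5.56% against 2.09% of all tested genes). Arc fell by 0.24, and its call was lost in 6 of 7 fits that left out a mouse (edgeR adjusted p up to 0.128 without C57BL/6J sample 1).

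Of 24 tested astrocyte genes, 1 rose and 4 fell (20.8% called against 2.09% of all tested genes). Glul, glutamine synthetase, measured 1688, 1659 and 1664 CPM in C57BL/6J and 1446, 1457, 1372 and 1439 CPM in H2, and it fell by 0.23 on the log2 scale (SE 0.031, edgeR adjusted p = 0.000656). Gjb6, the gap junction gene of connexin 30, fell by 0.35 (SE 0.047, edgeR adjusted p = 0.000638). Etnppl, an enzyme of phosphoethanolamine breakdown, measured 49.4, 40.7 and 50.7 CPM in C57BL/6J and 57.5, 62.0, 60.1 and 67.9 CPM in H2, and it rose by 0.40 (SE 0.067, edgeR adjusted p = 0.00436). Aqp4, the water channel, and Slc1a2, the glutamate transporter GLT-1, fell by 0.17 and 0.10. Their calls were lost in 5 and in 7 of the 7 fits that left out a mouse, with adjusted p up to 0.249 and 0.286 without C57BL/6J sample 1. The summed level of the list was 14560 to 14650 CPM in C57BL/6J and 13700 to 14310 CPM in H2.

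Microglia and macrophage genes yielded 0 calls among 22 tested with edgeR and 1 with DESeq2, which called 2.16% of all genes it tested. An unadjusted p under 0.05 was found for 9 of the 22, against 2723 of all 17464 tested genes. The summed level of the 23 list members found, tested or not, was 424.5 to 439.3 CPM in C57BL/6J and 468.1 to 472.1 CPM in H2, without overlap. Of the 22 tested, 18 had positive log2 fold changes. Csf1r had a log2 fold change of 0.14 (edgeR adjusted p = 0.0992), while P2ry12 and Tmem119, defining genes of resident microglia, had values of -0.01 and 0.03 with overlapping groups. The part of these cells in the C3 result was not tested. Of 25 interferon and antigen presentation genes, Ifit3 and Cd74 rose (8.0% called against 2.09% of all tested genes). Ifit3 rose by 0.54 on the log2 scale and lost its call without C57BL/6J sample 1 (edgeR adjusted p = 0.0527). Cd74, the invariant chain of MHC class II, measured 0.664 to 0.872 CPM in C57BL/6J and 1.247 to 1.748 CPM in H2 and lost its call in 6 of 7 fits that left out a mouse (edgeR adjusted p up to 0.121 without C57BL/6J sample 1). Of 13 neutrophil and lymphocyte genes, only Ighm passed the filter, with a log2 fold change of 0.02.

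Of 26 tested myelin genes, 2 rose and 3 fell (19.2% called against 2.09% of all tested genes). Gjc3, a connexin of oligodendrocytes, fell by 0.29 on the log2 scale and Olig2, an oligodendrocyte transcription factor, by 0.27, both called in all 7 fits that left out a mouse, although Olig2 was not called with either pair of H2 mice of 1 age as the only mutants (edgeR adjusted p = 0.0647 and 0.0849). Hapln2, a link protein of nodes of Ranvier, fell by 0.19, and Opalin and Sox10 rose by 0.34 and 0.20. These 3 calls were lost in 4, 3 and 5 of the 7 fits, with adjusted p up to 0.12 for Hapln2 without C57BL/6J sample 3, and up to 0.115 for Opalin and 0.0915 for Sox10 without C57BL/6J sample 1. Among 18 genes of precursor and new oligodendrocytes, 0 were called by edgeR and 1 by DESeq2, and 3 had an unadjusted p under 0.05. Of 25 cholesterol synthesis genes, 4 rose, against 2.09% of all tested genes called, among them Mvd, Insig1 and Sqle by 0.32, 0.15 and 0.16. None of these 3 was called without C57BL/6J sample 1 or without H2 sample 3, with adjusted p up to 0.105, 0.187 and 0.199. Of 18 fatty acid synthesis genes, Srebf1 and Elovl7 rose by 0.20 and 0.18 (11.1% called), and neither was called without C57BL/6J sample 1 or without H2 sample 3 (edgeR adjusted p up to 0.0733 and 0.107).

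Of 15 core clock genes, 3 were called, against 2.09% of all tested genes called. Npas2, a partner of BMAL1, measured 12.4, 11.2 and 11.0 CPM in C57BL/6J and 7.41, 8.19, 7.15 and 7.61 CPM in H2, and it fell by 0.60 on the log2 scale (SE 0.079, edgeR adjusted p = 0.000541). Dbp, an output gene of the clock, measured 25.1, 29.6 and 30.3 CPM in C57BL/6J and 37.4, 43.6, 41.0 and 39.5 CPM in H2, and it rose by 0.51 (SE 0.066, edgeR adjusted p = 0.000468). The Dbp call was lost in the fit of 5 spinal cord groups (edgeR adjusted p = 0.182). Tef, its relative, rose by 0.13 and lost its call in 5 of 7 fits that left out a mouse (edgeR adjusted p up to 0.221 without C57BL/6J sample 1). The core genes Bmal1, Clock, Per2 and Cry1 had log2 fold changes of -0.07, -0.10, 0.09 and -0.05 and were not called. The hour at which each mouse was sampled is not given in the sources used here.

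Genes of vessels and blood gave further single calls. Among 15 pericyte and smooth muscle genes, Notch3 and Atp13a5 rose by 0.35 and 0.33 (13.3% called against 2.09% of all tested genes). The Notch3 call was lost in 3 and the Atp13a5 call in 5 of the 7 fits that left out a mouse, with adjusted p up to 0.137 and 0.168 without C57BL/6J sample 1. The alpha-globin genes Hba-a2 and Hba-a1 moved in opposite directions, by 0.57 and -0.38 on the log2 scale. They are near-identical copies between which reads can be split unevenly, and the Hba-a1 call was lost in 5 of 7 fits (edgeR adjusted p up to 0.108 without H2 sample 1). The Hba-a2 call was lost in the fit of 5 spinal cord groups (edgeR adjusted p = 0.113). The beta-globin gene Hbb-bs had a log2 fold change of -0.28 (edgeR adjusted p = 0.0669). Of 7 cartilage and bone genes, Col11a2 alone was called (14.3% against 2.09% of all tested genes). Col11a2 rose by 0.22, and its call was lost without C57BL/6J sample 1 or H2 samples 2 or 3 (edgeR adjusted p up to 0.0718).

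Further lists gave 0 calls in edgeR. Of 37 Hox genes, 36 subunits of mitochondrial complex I, 36 cytosolic ribosomal protein genes, 17 ependymal genes, 5 choroid plexus genes and 5 skeletal muscle genes, respectively 3, 2, 2, 4, 1 and 1 had an unadjusted p under 0.05. DESeq2 called 0, 0, 0, 1, 0 and 1 of these list members, against 2.16% of all genes it tested. Of all 17464 genes tested with edgeR, 2723 had an unadjusted p under 0.05. Of 11 Schwann cell and nerve root genes and 9 filament genes, only Sox10 and only Vim, both given above, were called. These calls were 9.09% and 11.1% of the lists, against 2.09% of all tested genes.

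**Figure D4:**
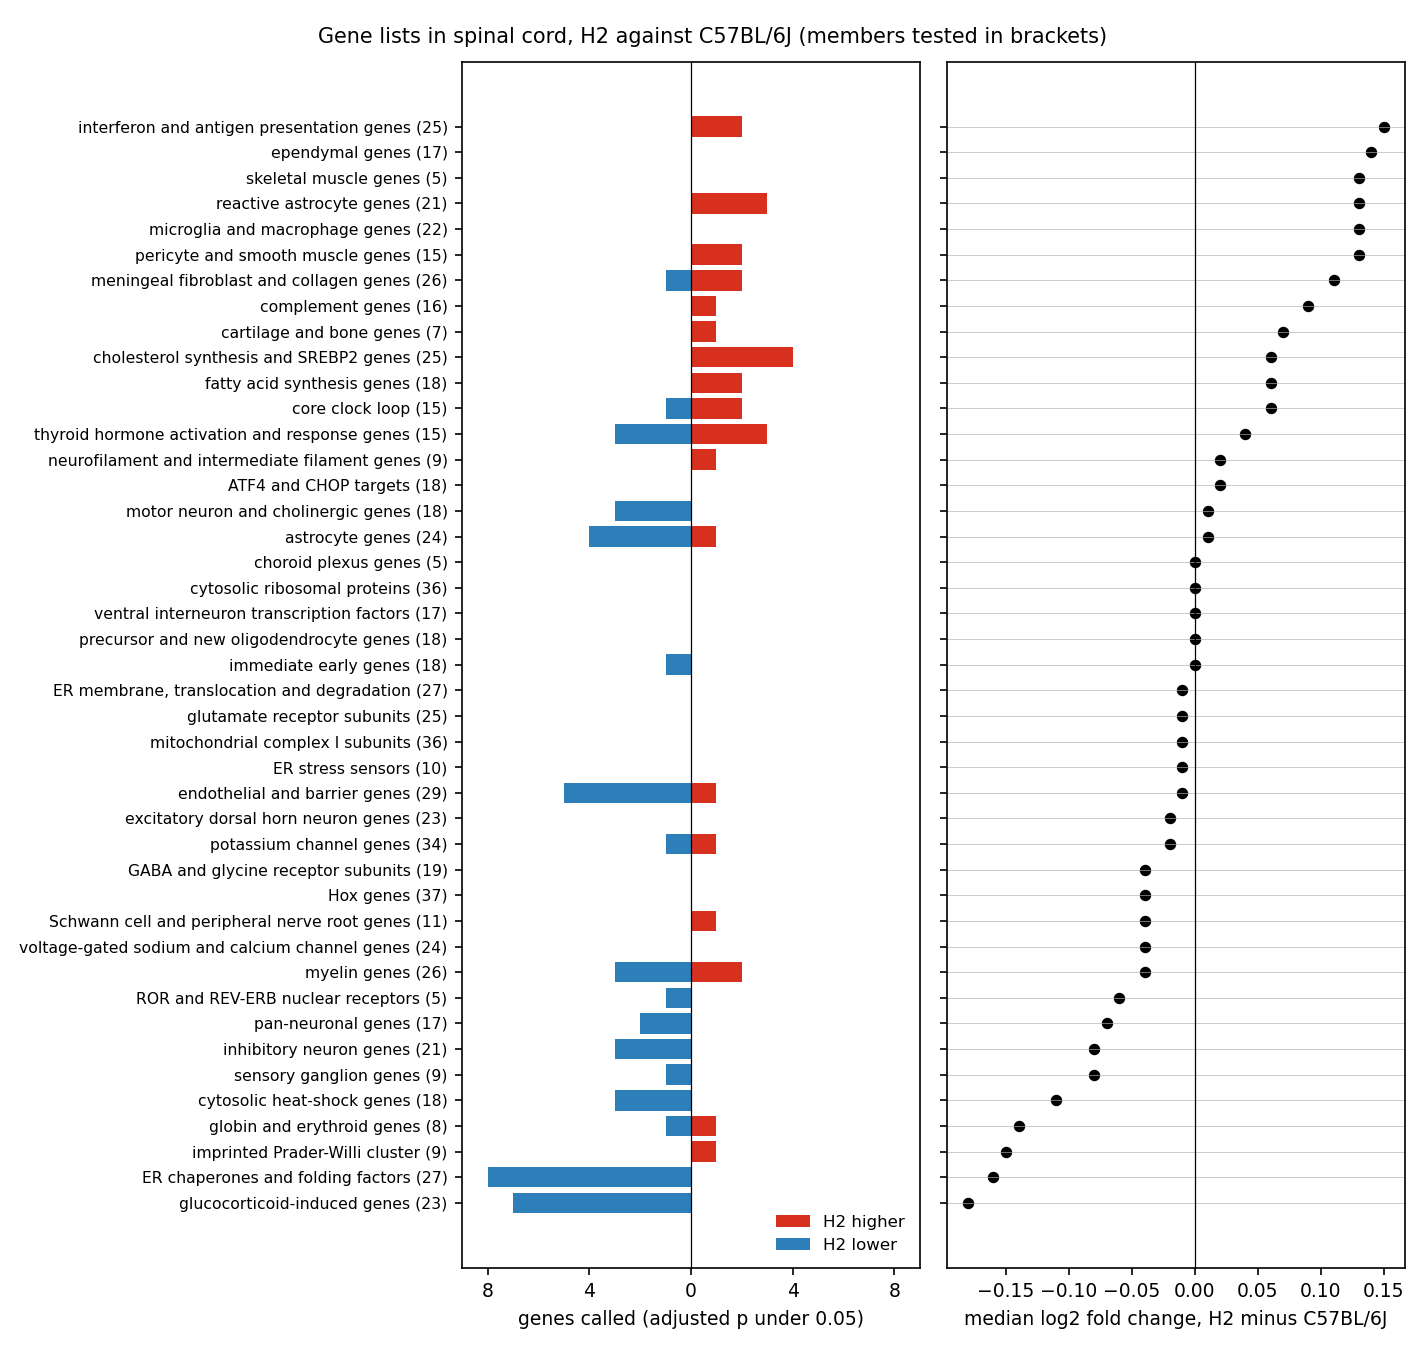
Number of members called lower (blue, to the left) or higher (red, to the right) in H2 for each gene list of at least 5 tested members, sex and strain markers left out, with the number tested in brackets, and the median log2 fold change of the members (right, horizontal axis). Of the lists drawn, ER chaperones and glucocorticoid-induced genes have the lowest medians, -0.16 and -0.18, and the most decreases, 8 and 7, while the 4 metallothionein genes, with a median of -0.20, are not drawn.

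Some of the 15 called genes that differed by more than 2-fold are given here, and all but Tyr were named after their values were seen. Tyr, the tyrosinase gene, measured 0.292, 0.403 and 0.358 CPM in C57BL/6J and 0.133, 0.0219, 0 and 0.0599 CPM in H2 (log2 fold change -2.62, edgeR adjusted p = 0.0311), and its call was lost in 5 of 7 fits that left out a mouse (up to 0.123 without C57BL/6J sample 2). Ighg3, an immunoglobulin constant region gene, had no counts in the 4 H2 libraries and 0.480, 0.474 and 0.291 CPM in C57BL/6J, at least 6.32-fold lower against a floor of 3 counts per library. The identifier ENSMUSG00000107260, which has no symbol in the annotation used, had no counts in C57BL/6J and 2.79, 1.73, 5.88 and 0.819 CPM in H2, at least 41.9-fold higher against the same floor. The gene 2210418O10Rik measured 0, 4.198 and 0 CPM in C57BL/6J and 10.7, 11.8, 15.6 and 9.19 CPM in H2, so that a single control library carried its counts. Xlr3b, a member of a multicopy X-linked family whose copies can share reads, measured 5.89, 5.79 and 11.2 CPM in C57BL/6J and 1.20, 2.76, 3.36 and 3.98 CPM in H2.

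The brain hemisections of 4 H2 and 3 C57BL/6J mice, taken to be the same mice, allowed the H2 difference to be compared between tissues. In brain, 24 of 17594 tested genes (0.136%) differed between H2 and C57BL/6J, and 13 of them were also called in spinal cord, which is 54.2% of the brain list and 3.56% of the spinal cord list. The tissues were taken to be from the same animals and are not independent. Rorb fell by 0.91 on the log2 scale in brain (SE 0.069, edgeR adjusted p = 0.000184), from 54.9 ± 5.37 CPM (SD, n = 3) to 29.1 ± 1.45 CPM (SD, n = 4). Ndn rose by 0.70 in brain (SE 0.076, edgeR adjusted p = 0.00576). The other genes called in both were Dio2, Mt2, Cdkn1a, Sdf2l1, Plin4, Mfsd2a, Dnajb11, Ly6c1, Hba-a1, Htra1 and Paqr8, each lower in H2 in both tissues. Their brain log2 fold changes lay between -1.19 for Plin4 and -0.33 for Htra1. The last 2 genes were named after their values were seen.

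The test of the difference itself, an interaction of genotype and tissue over the 14 libraries, called 0 of 18486 genes (0.0%) in edgeR, with 1014 at an unadjusted p under 0.05 and 5 called by DESeq2. For Rorb the spinal cord log2 fold change exceeded the brain value by 0.19 (SE 0.089), and for Ndn it was smaller by 0.24 (difference -0.24, SE 0.086), and neither passed adjustment. A gene called in spinal cord alone was thus not shown to differ from brain.

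H2 was also compared directly with other Rorb mutants, without the C57BL/6J libraries in the contrast. H3 arose on the same albino background as H2, H1 on C57BL/6J, and H4 on an Il1r1 mutant strain, and each group was homozygous for its own spontaneous Rorb allele. The H1 mice were aged 8.0 weeks, the H3 mice 8.0 to 9.6 weeks and the H4 mice 8.4 to 8.6 weeks. In a single fit of 5 spinal cord groups with sex as a covariate, Rorb stood at 31.6 ± 0.666 CPM in H1 (SD, n = 3), 37.9 ± 3.55 CPM in H3 (n = 4) and 8.31 ± 1.28 CPM in H4 (n = 4). H2, at 23.2 ± 0.866 CPM on this scale, lay below H3 by 0.71 on the log2 scale (difference -0.71, SE 0.077, edgeR adjusted p = 3.69e-05) and below H1 by 0.45 (difference -0.45, SE 0.079, edgeR adjusted p = 0.0197). The values of H3 and C57BL/6J overlapped.

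Against H3, which shares the albino background, 170 of 18198 tested genes (0.934%) were called, 112 higher (0.615%) and 58 lower (0.319%) in H2, and 40 of these were among the 365. The count was 97, 74, 97 and 45 without H2 samples 1, 2, 3 and 4 and 61 without H3 sample 3. The insulin-degrading enzyme gene Ide and its neighbour Btaf1, a transcription regulator, led the list with differences of -0.94 (SE 0.038, edgeR adjusted p = 4.12e-13) and -0.72 (SE 0.053, edgeR adjusted p = 4.07e-08). Both are known as part of a segment of chromosome 19 whose copy number varies among mouse colonies. Ide stood at 68.5 ± 2.69 CPM in H2 and 68.4 ± 3.29 CPM in C57BL/6J but at 131.6 ± 2.64 CPM in H3 and 106.8 ± 1.94 CPM in H4 (SD, n = 3 or 4). Thus the high value belonged to H3 and not to H2. Sfrp5 was higher in H2 than in H3 by 0.91 on the log2 scale (SE 0.109, edgeR adjusted p = 0.000158), and Adamtsl4, C3 and Itih3 by 0.41, 0.35 and 0.28. Ifit3, higher in H2 than in C57BL/6J, was lower in H2 than in H3 (difference -0.53, edgeR adjusted p = 0.0372). The complement gene C4b, named after its value was seen, was also lower in H2 than in H3 (difference -0.58, edgeR adjusted p = 0.0011). Gatm, Bcas1 and Fads1, genes of creatine synthesis, oligodendrocytes and fatty acid desaturation, were higher in H2 than in H3 by 0.25, 0.23 and 0.22, and none of the 3 was called against C57BL/6J.

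Ndn, Apln, Aldh1a1 and Dio2 did not separate H2 from H3. Ndn stood at 166.8 ± 3.66 CPM in H2 and 176.6 ± 9.05 CPM in H3 (difference -0.07, SE 0.038, edgeR adjusted p = 0.491), and at 121.2 ± 4.52 CPM in C57BL/6J and 123.1 ± 2.08 CPM in H1 (SD, n = 3 or 4). The albino-background groups and H4, at 162.7 ± 5.16 CPM, were high, and C57BL/6J and H1, which is on C57BL/6J, were low. Apln and Aldh1a1 differed from H3 by 0.06 and -0.08 on the log2 scale (edgeR adjusted p = 0.644 and 0.412), and Dio2 by -0.26 (edgeR adjusted p = 0.24). The glucocorticoid-induced genes Cdkn1a, Klf9, Plin4, Mt1, Mt2 and Sgk1 differed from H3 by 0.04, -0.03, 0.10, -0.12, -0.13 and -0.74. None of them was called against H3 (edgeR adjusted p between 0.299 and 0.931). Against H1, Cdkn1a was called lower in H2 (difference -0.41, edgeR adjusted p = 0.0451), and the others were not called. Of the ER chaperones, 0 were called against H3 or H1. Hspa5 stood at 243.4 ± 18.1 CPM in H2, 256.1 ± 13.8 CPM in H1, 225.6 ± 9.18 CPM in H3 and 224.5 ± 7.61 CPM in H4, while C57BL/6J stood at 343.1 ± 66.5 CPM (SD, n = 3 or 4).

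Against H1, which is on the C57BL/6J background, 25 of 18198 genes (0.137%) were called, 9 higher (0.0495%) and 16 lower (0.0879%) in H2, and 22 of these were among the 365. Leaving out any mouse of either group reduced the count to between 6 and 13. Ndn was higher by 0.44 on the log2 scale (SE 0.039, edgeR adjusted p = 2.59e-06), Adamtsl4 by 0.50 (SE 0.058, edgeR adjusted p = 0.000127), Itih3 by 0.34 and Sfrp5 by 0.68. Aldh1a1 was lower in H2, with a difference of -0.34 (SE 0.036, edgeR adjusted p = 5.76e-05), as were Mast4, a kinase gene, with -0.31, Apln with -0.32 and Dio2 with -0.55. Genotype and background differ together between H2 and H1 and cannot be told apart. All 3 contrasts share the H2 libraries, and 7 genes were called in each. Sfrp5, Adamtsl4, C3 and Itih3 were higher in H2 in all 3, and Rorb, Calca and Gm28322 were lower.

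**Figure D5:**
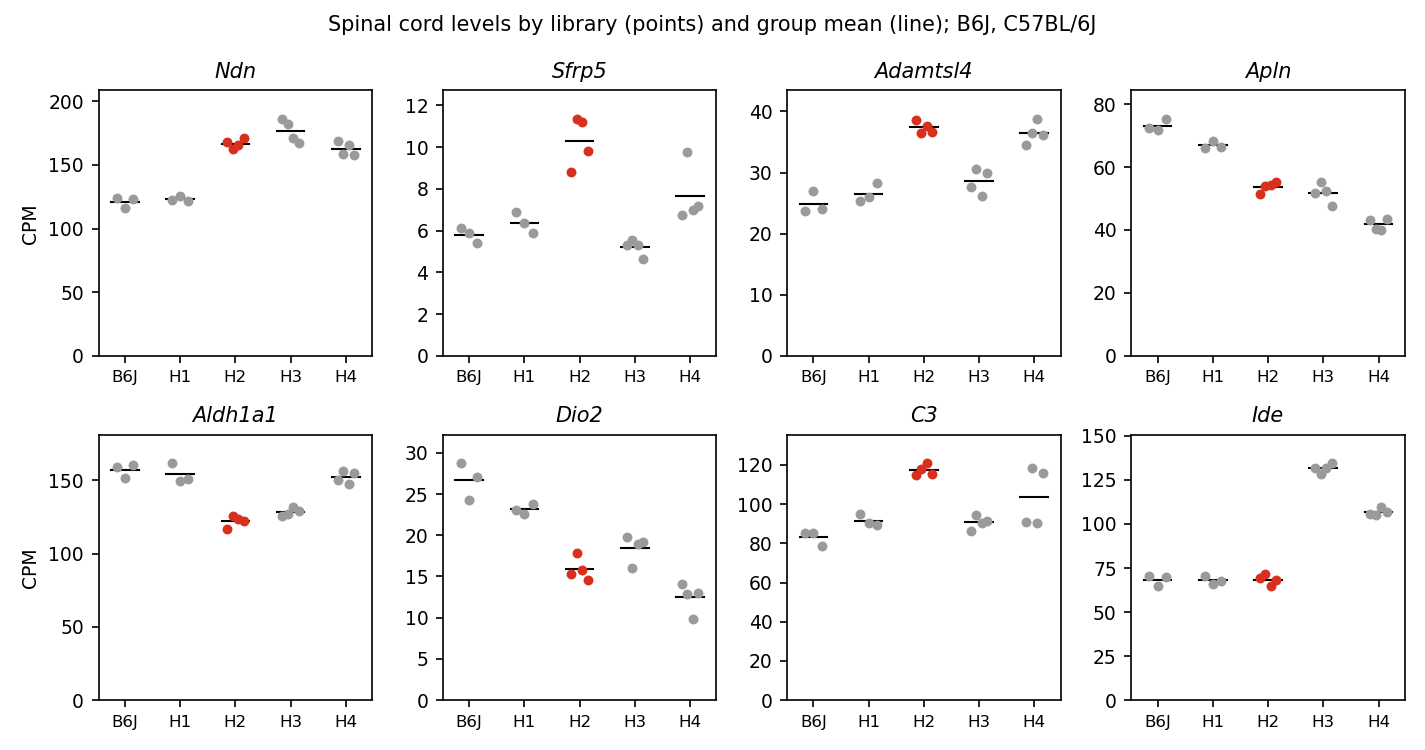
Spinal cord level in CPM (vertical axes) of 8 genes in each library (points) of C57BL/6J (B6J), H1, H2, H3 and H4, with the group mean as a line and H2 in red. Ndn and Aldh1a1 are alike in H2 and H3, the mean of Sfrp5 is highest in H2, and Ide is raised in H3 and H4 alone.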

How the data were processed

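Polyadenylated RNA of mouse spinal cord and brain hemisections was sequenced by the authors as paired reads. Per the study's methods, reads were trimmed with Trim Galore, checked with FastQC, aligned with STAR to GRCm38 and quantified per gene with RSEM. The deposited tables hold expected counts and TPM for each of 45706 gene identifiers, and strand use in counting is not given in the sources used here. The authors tested with DESeq2. Only 25 of the 66 libraries were used here, 7 of them in the main comparison.

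Expected counts were rounded to whole numbers (5.21% of the values in the 7 libraries were not whole), filtered with filterByExpr, scaled by TMM and tested with edgeR's quasi-likelihood F test (edgeR 4.0.16, R 4.3.3), with Benjamini-Hochberg adjustment over all tested genes and a threshold of 0.05. CPM are on the TMM scale. The TPM of the authors were used only for the exact permutation test of Rorb, as log2(TPM + 1), and for the means given for Ptp4a1. The tissue comparison used an interaction term over 14 libraries, and the direct comparisons of mutants used 18 spinal cord libraries with sex as a covariate. DESeq2 1.42.0, other scalings, no filter, sex, age and replicate subsets were alternatives. Symbols came from a GENCODE table of a later build, used for names only (41403 identifiers matched), and positions from RefSeq GRCm38.p6 (31375 matched).

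The test was checked on simulated data. No pair of replicates held identical values, and all pairs of the same group differed by more than sampling noise. Replicate numbers did not pair the H2 and C57BL/6J mice (correlations of deviations 0.032, -0.026 and -0.055), while brain and spinal cord of the same group and number, which share sex and age in the labels and an identifier in the names of the deposited files, were taken to be from the same animal.

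The genes named are Rorb and its neighbours within 1 Mb, the 15 higher and 15 lower genes with a symbol and the smallest adjusted p, up to 6 called members of each gene list by adjusted p, the 8 called genes with a symbol and the smallest adjusted p of each further comparison, and sex, strain and copy-number markers. Genes given beside these as uncalled members of a list, and those said so, were chosen after their values were seen. The comparison, the gene lists and the motifs were chosen with earlier results of these data known, and no count over a list is offered as independent support. Some genes that this rule names are not reported here.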

Additional observations from a re-analysis of the deposited data

Results flagged for a closer look

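For genes and library measures, 107 groups of 4 H2 spinal cord values were searched for a single mouse far from the other 3. Dixon's criterion was used, by which chance marks about 5 in 100 groups. Of the 107 groups, 2 were marked, both for H2 sample 3. Rorb stood at 25.0 CPM in that mouse and at 23.2 to 23.3 CPM in the other H2 mice. Amd1, an enzyme gene of polyamine synthesis that was named as a copy-number marker, stood at 149.4 CPM in that mouse and at 158.0 to 158.9 CPM in the others. Without H2 sample 3 Rorb stayed lower in H2, within the log2 fold changes of -0.77 to -0.69 seen over all fits that left out a mouse.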

How the results depend on the processing

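Rorb kept its direction and its call in all 17 alternatives (log2 fold change -0.77 to -0.69, largest adjusted p 0.000587), as did Ndn (0.43 to 0.48, largest 0.000199). None of the 365 called genes changed direction in any alternative that tested it. The count of 365 became 554 with DESeq2, 783 without a low-count filter, 776 in females only, 148 and 125 with H2 samples 1 and 2 or 3 and 4 as the only mutants, and 209 in a fit of 5 spinal cord groups, and it ranged from 132 to 501 when a mouse was left out. The cause was not tested. Of the 365, the genes kept were 331 with DESeq2, 288 in females only, 125 and 105 in the age subsets and 195 in the fit of 5 groups. With the replicate number as a block, which does not pair these mice, 294 genes were called, of which 220 were among the 365. The interaction of genotype and tissue gave 5 calls with DESeq2 and 7 without a filter, and 0 with the presumed animal as a replicate block or with any mouse left out. The 170 calls against H3 became 39 in a fit of the 2 groups alone, 296 without the sex covariate, 325 with DESeq2, 494 without a filter, 173 with the replicate block and 45 to 175 with a mouse left out. The 25 calls against H1 became 237 in the 2 groups alone, 159 with DESeq2, 281 without a filter, 70 with the replicate block and 6 to 13 with a mouse left out. Uncalled genes near 0 changed sign. Their log2 fold changes were, for H2 samples 3 and 4 alone 0.01 in Ostf1, 0.0047 in D030056L22Rik, -0.04 in Ide, -0.0038 in Cyfip2, 0.07 in Fgfbp3 and -0.01 in Entpd4. For H2 samples 1 and 2 alone they were -0.1 in Nmrk1, 0.07 in Btaf1 and -0.03 in Il1r1, for females only -0.04 in Nmrk1 and -0.07 in Il1r1, and with sex as a covariate -0.01 in Il1r1. With a mouse left out, they ranged from -0.06 to 0.02 in Ostf1, -0.06 to 0.13 in Nmrk1, -0.06 to 0.02 in D030056L22Rik, -0.03 to 0.03 in Ide, -0.06 to 0.03 in Btaf1, -0.01 to 0.05 in Cyfip2, -0.0021 to 0.03 in Entpd4 and -0.1 to 0.21 in Il1r1.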

Other observations

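Ighg3, which had no counts in H2 spinal cord, also had none in the H1 and H4 spinal cords and stood at 0.171 to 0.379 CPM in H3. Of the 520 tested genes of chromosome 19, which carries Rorb, 15 were called (2.88%, against 2.09% of all tested genes).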
